A study of Mus musculus with 31 samples.

Results

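The BCL2 family decides whether the outer membrane of the mitochondrion is opened during apoptosis, and its transcripts were followed here through RNA sequencing of Panc02 cells, a mouse pancreatic adenocarcinoma line. The 10 members were the genes with the symbols Bcl2, Bcl2l1, Mcl1, Bax, Bak1, Bcl2l11, Bbc3, Pmaip1, Bid and Bad, taken by name from count tables of 55487, 56980 and 56941 genes. Each symbol had 1 row in each of the 3 tables. All 31 samples were used. In the conditioned media experiment, WT spheroids in Matrigel were given control medium (Ctrl), medium conditioned by unstimulated macrophages (M0-CM) or medium conditioned by macrophages stimulated with IFNγ and LPS (M1-CM), with 3 samples each. In the culture experiment, WT cells and cells with a CRISPR/Cas9 knockout of the chemokine gene Cxcl5 (Cxcl5-/-) were grown in 2D or as 3D spheroids in Matrigel in culture medium, with 3 samples in each of the 4 groups. In the rescue experiment, all spheroids were in 3D: WT (2 samples), Cxcl5-/- (2 samples), Cxcl5-/- cells that overexpressed a mutant Hif1a (Hif1a OE Cxcl5-/-, 3 samples) and Cxcl5-/- cells that overexpressed Myc (Myc OE Cxcl5-/-, 3 samples). The overexpressing lines were made by retroviral transduction of Cxcl5-/- cells, so both carry the Cxcl5 knockout and were compared first with Cxcl5-/- cells. The study's methods state biological replication for its experiments in general, but the sources used here do not say whether a line is 1 clone or whether the sequenced samples of a group are separate cultures, so p-values measure only the spread between these samples, which may be technical. For the rescue samples each label names a line of another number, while the study's methods describe Panc02 cells.

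The family has 3 kinds of protein. The anti-apoptotic members BCL2, BCL-XL (gene Bcl2l1) and MCL1 hold the killers in check. The effectors BAX and BAK (gene Bak1) form pores in the mitochondrial outer membrane and release cytochrome c. The BH3-only members sense stress: BIM (gene Bcl2l11), PUMA (gene Bbc3), NOXA (gene Pmaip1) and BID can release or directly activate the effectors, and BAD binds BCL2 and BCL-XL when it is not phosphorylated. Bbc3, Pmaip1 and Bax are known targets of p53, Bcl2l11 is a known target of FOXO factors, and MYC is known to sensitise cells to apoptosis. Much of the control of these proteins (phosphorylation of BAD, cleavage of BID, rapid turnover of MCL1) acts after transcription and was not measured by RNA sequencing.

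The genes lie on separate chromosomes for the most part (GRCm38 coordinates, GENCODE M21 annotation). Of the anti-apoptotic genes, Bcl2 spans chr1:106538178-106714274 (- strand), Bcl2l1 spans chr2:152780668-152831728 (- strand) and Mcl1 spans chr3:95658788-95663176 (+ strand). Of the effectors, Bax spans chr7:45461697-45466898 (- strand) and Bak1 spans chr17:27019810-27029009 (- strand). Of the BH3-only genes, Bcl2l11 spans chr2:128126038-128162547 (+ strand), Bbc3 spans chr7:16308393-16318205 (+ strand), Bid spans chr6:120891930-120916853 (- strand) and Bad spans chr19:6941861-6951899 (+ strand). Exons of 5 members overlap exons of another gene: Bcl2 with the antisense gene D630008O14Rik, Bax with Gm45808 on the same strand, Bak1 with Ggnbp1, Bid with Bcl2l13 and Bad with Gpr137, the last 3 on opposite strands. The libraries were stranded, but the strand setting of the counting is not given in the sources used here, so the counts of these 5 genes can hold reads of their neighbours.

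Because Hif1a and Myc were overexpressed, promoter sequences of the members (RefSeq, GRCm38.p6, 250 bases before to 50 after each annotated start) were searched on both strands. The strings were CACGTG, the E-box that MYC binds, ACGTG, and GTAAACA, a core site of FOXO factors. ACGTG, which lies within every CACGTG, is a form of the core of the HIF response element, and other forms were not searched. The table held 15 promoters of 9 members. CACGTG was in 2 of them, a Bax and a Bbc3 promoter, and in 7.15% of all 32851 promoters. ACGTG was in the same 2 and in 19.6% of all promoters. GTAAACA was in 2, a Bcl2l11 promoter and another Bbc3 promoter, and in 3.65% of all promoters. The stretches from before the match to the last base before the start are given here for 1 promoter of each of the 3 genes that hold a match, with the match in capitals, and no annotated exon lies in any of them. The Bbc3 stretch lies within the gene, before an internal start. The Bax promoter had a further CACGTG starting 36 bases into the transcript, which is not shown. A match is a string of letters and not evidence of binding.
Bcl2l11, chr2:128125791-128126037 (+ strand), GTAAACA in capitals: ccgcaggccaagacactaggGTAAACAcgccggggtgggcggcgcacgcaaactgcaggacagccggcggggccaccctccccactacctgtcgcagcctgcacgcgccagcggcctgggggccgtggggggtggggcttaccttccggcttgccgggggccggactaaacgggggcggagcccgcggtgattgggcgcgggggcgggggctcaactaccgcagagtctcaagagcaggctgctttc
Bax, chr7:45466899-45467007 (- strand), CACGTG in capitals: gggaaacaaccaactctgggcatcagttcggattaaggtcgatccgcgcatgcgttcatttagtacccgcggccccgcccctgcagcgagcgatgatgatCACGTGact
Bbc3, chr7:16310267-16310430 (+ strand), CACGTG in capitals: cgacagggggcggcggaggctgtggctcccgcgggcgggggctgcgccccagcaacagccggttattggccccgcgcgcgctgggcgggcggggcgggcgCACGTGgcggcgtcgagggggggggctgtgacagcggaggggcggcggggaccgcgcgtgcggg

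Library totals ran from 41542533 to 78498230 counts, and mitochondrial transcripts took 0.392% to 3.02% of them. The keratin genes Krt8 and Krt18 were counted in every library, whereas Epcam and Cdh1, which define epithelial cells, had at most 25 and 28 counts in any library and were at 0 in all samples of the conditioned media and 2D groups. Adgre1 and Itgam, which define macrophages, were at 0 to 3 counts in the conditioned media samples, at 0 to 5 in the culture samples and at 7 to 33 in the rescue WT samples. The summed level of all 6 macrophage markers, carried mainly by Cd68 and Lyz2, was 5.11 to 15.3 CPM in the conditioned media samples. In 2D it was 1.90 to 2.66 CPM in WT and 6.04 to 7.87 CPM in Cxcl5-/-. It was 7.35 to 8.85 CPM in 3D WT and 14.6 to 23.9 CPM in libraries labelled 3D Cxcl5-/-. Among rescue samples it was 14.2 to 14.4 CPM in WT and 14.8 to 15.7 CPM in Cxcl5-/-. There it was 20.1 to 25.7 CPM in Hif1a OE Cxcl5-/- and 16.1 to 23.8 CPM in Myc OE Cxcl5-/-. The part of these markers in the results was not tested. The summed level of 4 fibroblast markers was 246 to 336 CPM in the conditioned media samples and 8.31 to 24.7 CPM in the 2D samples. The 2 rescue WT libraries stood apart, with 27353 and 27506 genes at 10 counts or more against 19732 to 21560 in the other 8 libraries of that experiment. Cxcl5 counts were lower in rescue Cxcl5-/- than in rescue WT libraries (log2 fold change ± SE of -0.78 ± 0.14, adjusted p = 0.0011), lower without passing the test in 2D (-0.47 ± 0.14, adjusted p = 0.07), and higher in libraries labelled 3D Cxcl5-/- than in WT spheroids (0.91 ± 0.14, adjusted p = 0.00017). A change made by a guide in the coding sequence need not lower a transcript, so these counts do not check the edit, and the 3D group is called here by its label. Values with ± in the comparisons are log2 fold changes with their SE unless a unit is given, and p-values are from edgeR's quasi-likelihood test with Benjamini-Hochberg adjustment over all genes tested. Hif1a rose in Hif1a OE Cxcl5-/- over Cxcl5-/- cells (0.94 ± 0.10, adjusted p = 3e-05) and Myc rose in Myc OE Cxcl5-/- over Cxcl5-/- cells (4.54 ± 0.16, adjusted p = 1.9e-08). Hif1a rose about as much in the Myc line (0.90 ± 0.10, adjusted p = 3.1e-05), did not differ past the threshold between the lines (-0.04 ± 0.09, adjusted p = 0.83) and was at -0.24 ± 0.10 in the Hif1a line against WT (adjusted p = 0.1). Hif1a and Myc both fell between 3D WT libraries and those labelled 3D Cxcl5-/- (Hif1a -1.21 ± 0.10, adjusted p = 4.1e-07 and Myc -1.75 ± 0.12, adjusted p = 8.9e-08).

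Levels of different members can be compared only per length, as counts per kilobase of merged exon scaled to the same total in every sample. On that scale Bax and Mcl1 led in every group. In 2D WT cells Bax was at 143 ± 10.5 and Mcl1 at 84.2 ± 4.06 (mean ± SD, n = 3). Bak1 (50.3 ± 5.96), Bid (40.6 ± 0.096), Bcl2l1 (35.3 ± 2.92) and Bad (33.9 ± 3.93) followed, of which Bcl2l1 and Bad lay within 1 SD of each other. Bcl2 was lower at 14.6 ± 1.24, and the BH3-only genes Bbc3 (6.05 ± 1.64), Bcl2l11 (2.21 ± 0.325) and Pmaip1 (0.0541 ± 0.0479) closed the order. In 3D WT cells Bax (74.9 ± 15.6) and Mcl1 (72.2 ± 12.8) did not differ beyond their spread, and their ratio changed sides with the length used, from 1.04 with merged exons to 0.774 with the coding length. With merged exons, Bcl2l11 was the lowest of the members but Pmaip1 in both 2D groups and in 3D WT. In rescue Cxcl5-/- cells it stood above Bcl2 and Bbc3, the former at 19.1 ± 0.216 against 27.9 ± 2.77 for Bcl2l11 (n = 2). These ranks depend on the length too: Bcl2l11 has 8029 bases of merged exon and 647 coding bases, Bbc3 2124 and 579, and Bax 1576 and 614. With the coding length Bcl2l11 stood above Bbc3 in 3D WT (25.6 against 8.98 CPM). It also stood above Bax in rescue Cxcl5-/- (62.3 against 27.9 CPM). The 9 members other than Pmaip1 had at least 10 counts in every sample, and the counts of members below are over these 9. Pmaip1 is described on its own.

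In 3D culture, WT cells carried more Bcl2l11, Bbc3 and Mcl1 transcript and less Bcl2l1, Bid, Bak1, Bad and Bax than in 2D culture. The comparison asks how growth as spheroids in matrix changes the family. Of the 9 members, 3 rose and 5 fell (edgeR quasi-likelihood test, adjusted p under 0.05 over all genes), beside 22.2% of all 21367 genes tested that rose and 22% that fell. The median log2 fold change was -0.34 over the members and 0.00 over all genes. In bulk samples, fewer cells of a type and less RNA per cell cannot be told apart. Bcl2l11, the gene of BIM, moved most of the members. Its level was 6.68, 7.61 and 5.98 CPM in the 2D WT samples and 26.4, 22.7 and 27.7 CPM in the 3D WT samples. The groups lay far apart, and the log2 fold change was 1.92 ± 0.13, adjusted p = 6.9e-08. Bbc3, the gene of PUMA, was at 6.30, 3.48 and 4.99 CPM in 2D and 9.50, 8.50 and 8.93 CPM in 3D, with no overlap (0.87 ± 0.21, adjusted p = 0.0043). Mcl1 went the same way as these pro-apoptotic genes, from 116, 107 and 107 CPM in 2D to 144, 146 and 136 CPM in 3D (0.37 ± 0.08, adjusted p = 0.0017).

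Among the genes that fell in 3D WT cells, Bcl2l1, the gene of BCL-XL, moved most: it was at 57.1, 60.3 and 68.3 CPM in 2D and at 31.5, 29.7 and 29.0 CPM in 3D, and the groups did not overlap (-1.04 ± 0.10, adjusted p = 1.9e-06). Bid was at 55.3, 53.4 and 56.3 CPM and then at 33.8, 32.3 and 33.2 CPM (-0.73 ± 0.09, adjusted p = 1.8e-05). The 2 groups of Bid were far apart. The effectors fell by less. Bak1 went from 49.9, 38.8 and 50.3 to 34.6, 31.5 and 32.1 CPM (-0.50 ± 0.11, adjusted p = 0.0022) and Bax from 93.6, 78.1 and 87.0 to 75.6, 63.4 and 64.7 CPM (-0.34 ± 0.11, adjusted p = 0.017). Bad, at 36.0, 27.9 and 35.6 CPM in 2D and 28.7, 23.2 and 23.4 CPM in 3D, overlapped between the groups (-0.40 ± 0.13, adjusted p = 0.026). Bcl2 did not pass the test, with 51.1 ± 3.42 CPM in 2D and 42.8 ± 4.18 CPM in 3D (-0.26 ± 0.10, adjusted p = 0.06). Bax and Bad lost the call when 2D WT replicate 1, 2D WT replicate 3, 3D WT replicate 2 or 3D WT replicate 3 was left out, and with DESeq2 size factors. Scaling by library totals, which put the all-gene median at -0.21 instead of 0.00 and had 3562 genes rise and 6716 fall against 4752 and 4707 with TMM, put Bcl2 past the threshold (-0.48, adjusted p = 0.01), as did leaving out replicate 2 of the libraries labelled 3D Cxcl5-/-, and took Mcl1 below it (0.15, adjusted p = 0.16). The summed level of the 4 fibroblast markers was between 22.7 and 24.7 CPM in 2D WT and between 63.5 and 67.5 CPM in 3D WT, and that of the 6 carcinoma markers between 544 and 589.9 CPM and between 852 and 1096 CPM, with Epcam and Cdh1 at 5 counts or fewer in all of these libraries. Their part in the result was not tested.

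**Figure D1:**
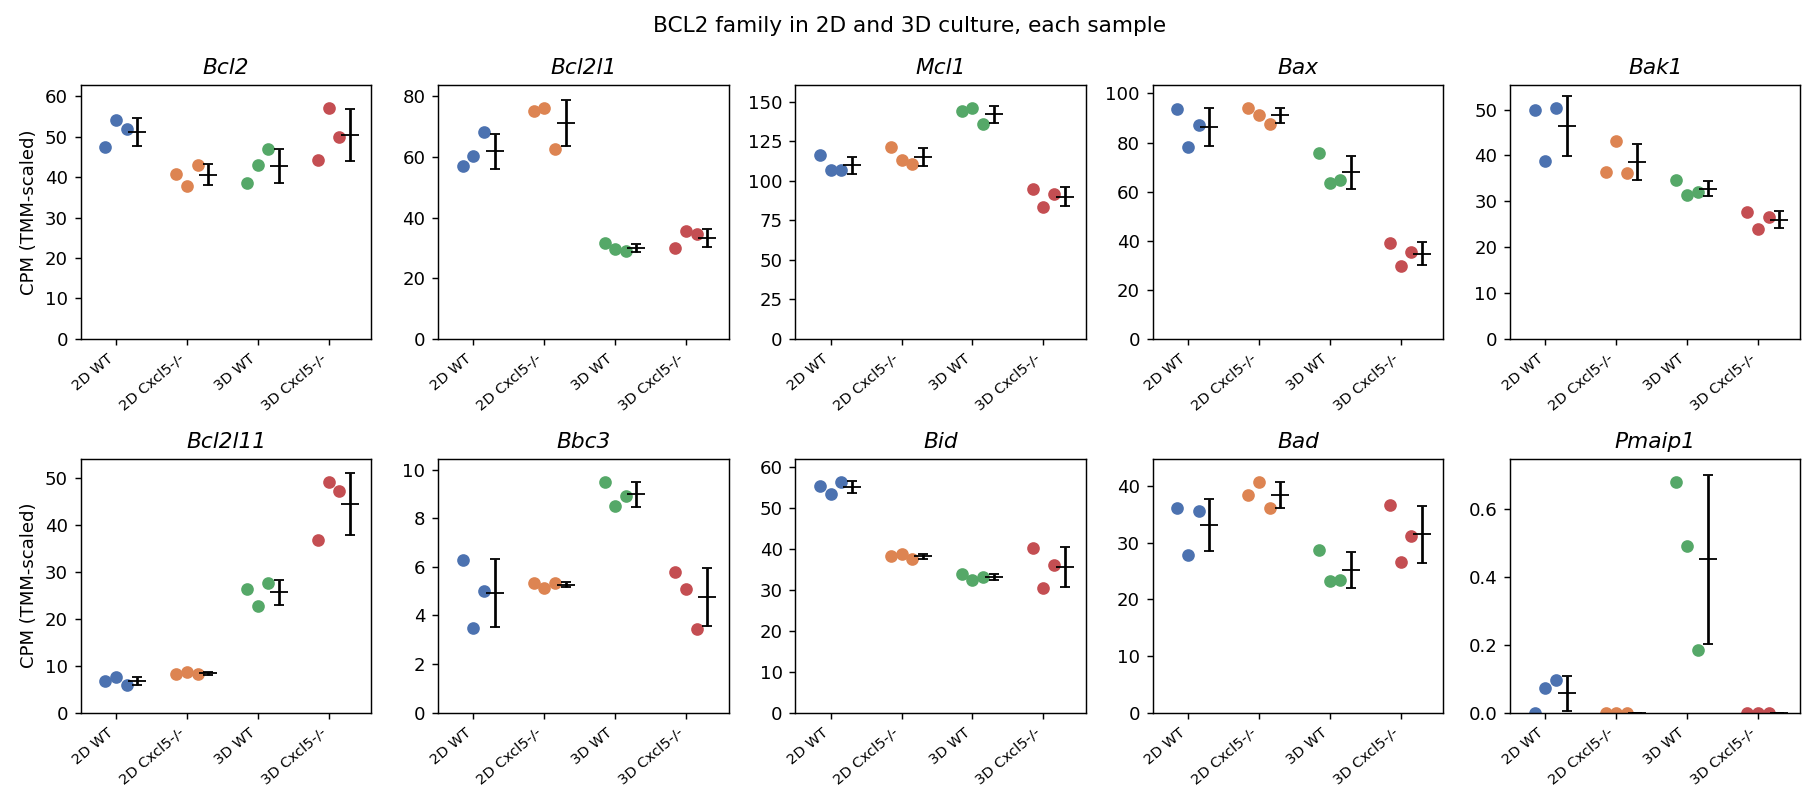
Level of each member in the culture experiment (CPM on TMM-scaled library sizes, linear axes from 0), with 1 point per sample, 4 groups of 3 samples, and the mean and SD beside the points. Bcl2l11 is at 5.98 to 7.61 CPM in 2D WT and 22.7 to 27.7 CPM in 3D WT, Bax is lowest in libraries labelled 3D Cxcl5-/-, and Pmaip1 is at 0 in both Cxcl5-/- groups.

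In 2D culture only Bid passed the test for genotype. Of the 9 members, 0 rose and 1 fell in Cxcl5-/- cells, beside 3.86% of all genes that rose and 3.17% that fell. An unadjusted p under 0.05 was found for 4 members, beside 2012 of all 21367 genes that rose and 1892 that fell. The member that fell was Bid, at 38.3, 38.6 and 37.4 CPM in Cxcl5-/- cells against 55.3, 53.4 and 56.3 CPM in WT cells (-0.53 ± 0.09, adjusted p = 0.0022). Bcl2 was next, at 40.8, 37.9 and 43.1 against 47.4, 54.1 and 51.8 CPM, with separate groups and an adjusted p of 0.079 (-0.33 ± 0.10). With only the 2D groups in the fit Bcl2 passed the test as well. Bcl2l11 was at 8.12, 8.62 and 8.30 CPM in 2D Cxcl5-/- cells and did not pass the test against 2D WT cells (0.30 ± 0.13, adjusted p = 0.22), although the groups did not overlap, nor did those of Bad. Bax (0.08 ± 0.11, adjusted p = 0.81), Mcl1 (0.07 ± 0.08, adjusted p = 0.76) and Bbc3 (0.10 ± 0.21, adjusted p = 0.9) did not pass either, nor did Bcl2l1 (0.20 ± 0.10, adjusted p = 0.31), Bak1 (-0.27 ± 0.11, adjusted p = 0.21) or Bad (0.21 ± 0.13, adjusted p = 0.46). The summed fibroblast markers were at 8.31 to 9.51 CPM in Cxcl5-/- and 22.7 to 24.7 CPM in WT cells, and the carcinoma markers at 443 to 478 CPM and 544 to 589.9 CPM. Whether these bear on the result was not tested.

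In 3D culture the libraries labelled 3D Cxcl5-/- held less Bax, Bbc3, Mcl1 and Bak1 than 3D WT libraries, and more Bcl2l11. So 1 member rose and 4 fell of 9, beside 19.7% of all genes that rose and 25.3% that fell. Bax, the pore-forming effector, was at 39.0, 29.6 and 35.3 CPM in libraries labelled 3D Cxcl5-/- and 75.6, 63.4 and 64.7 CPM in 3D WT libraries. The highest of the former was below the lowest of the latter, and Bax was 1.96-fold lower (-0.97 ± 0.11, adjusted p = 8.2e-06). Bbc3 was at 5.77, 5.08 and 3.45 CPM against 9.50, 8.50 and 8.93 CPM (-0.91 ± 0.21, adjusted p = 0.0032), close to the levels of the 2D WT samples. Mcl1 was at 94.9, 83.3 and 92.0 CPM against 144, 146 and 136 CPM (-0.66 ± 0.08, adjusted p = 1.7e-05), below every 2D sample. Bak1 differed less, at 27.7, 23.9 and 26.5 against 34.6, 31.5 and 32.1 CPM (-0.33 ± 0.11, adjusted p = 0.028). Bcl2l11 was the member that rose, at 36.8, 49.2 and 47.1 CPM against 26.4, 22.7 and 27.7 CPM (0.79 ± 0.12, adjusted p = 0.00017).

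The remaining members did not pass the test for genotype in 3D: Bad (0.33 ± 0.13, adjusted p = 0.063), Bcl2 (0.24 ± 0.10, adjusted p = 0.078), Bcl2l1 (0.15 ± 0.10, adjusted p = 0.25) and Bid (0.10 ± 0.09, adjusted p = 0.39). The scaling mattered here. TMM factors were 0.820 to 0.912 in 3D WT and 1.01 to 1.22 in libraries labelled 3D Cxcl5-/-. The median over all genes, -0.04 with TMM, was 0.35 with library totals. A single gene, Gm10800, took 8.34% and 14.5% of the counts in 3D WT replicates 2 and 3, and was the top gene in no other library. Its part in the scaling was not tested. Under library totals Bax (-0.59), Bbc3 (-0.53) and Mcl1 (-0.27) stayed lower and past the threshold, Bak1 was at 0.05 (adjusted p = 0.71), and 5 members rose (Bcl2l11, Bad, Bcl2, Bcl2l1 and Bid), with 7672 of all 21367 genes rising and 2443 falling under that scaling against 4218 and 5397 with TMM. Bak1 also lost its call when 1 of 5 libraries was left out (2D Cxcl5-/- replicates 1 and 3, 3D WT replicate 1, and replicates 2 and 3 of the libraries labelled 3D Cxcl5-/-), with no filter on low counts, or with the filter of 10 counts in every sample. The call of Bad was gained without 2D Cxcl5-/- replicate 1, 3D WT replicate 1 or the second 3D Cxcl5-/- library, that of Bcl2 without replicate 1 of 2D Cxcl5-/- or of 3D Cxcl5-/-, and that of Bid without the second 3D Cxcl5-/- library. Bad also passed with DESeq2's Wald test, with no filter and with the filter of 10 counts, and Bcl2 with no filter and with the filter of 10 counts. Beside these differences, the summed level of the 4 fibroblast markers was 201 to 229 CPM in libraries labelled 3D Cxcl5-/- and 63.5 to 67.5 CPM in 3D WT. That of the 6 carcinoma markers was 214 to 233 CPM and 852 to 1096 CPM. Of 3 fibroblast markers tested 1 was higher and 2 were lower, and of 4 carcinoma markers tested 3 were lower. Their part in the result was not tested.

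Going from 2D to 3D within the Cxcl5-/- label, 2 members rose and 4 fell of 9, beside 28.7% and 28.2% of all genes. Bcl2l11 again rose most, from 8.12, 8.62 and 8.30 to 36.8, 49.2 and 47.1 CPM, a 5.31-fold difference (2.41 ± 0.13, adjusted p = 5.7e-09). Bcl2 rose by little (0.31 ± 0.10, adjusted p = 0.019) and lost the call without 2D Cxcl5-/- replicate 2 or without replicate 2 or 3 of the 3D libraries. Bax fell from 94.0, 91.2 and 87.7 to 39.0, 29.6 and 35.3 CPM (-1.39 ± 0.11, adjusted p = 1.5e-07). Bcl2l1 fell from 75.0, 76.1 and 62.6 to 29.8, 35.6 and 34.5 CPM (-1.10 ± 0.10, adjusted p = 7.3e-07). Bak1 (-0.57 ± 0.11, adjusted p = 0.00068) and Mcl1 (-0.35 ± 0.08, adjusted p = 0.0017) fell as well, Mcl1 losing the call with library totals (-0.21, adjusted p = 0.054). Bid (-0.10 ± 0.09, adjusted p = 0.36), Bbc3 (-0.14 ± 0.21, adjusted p = 0.58) and Bad (-0.29 ± 0.13, adjusted p = 0.079) did not pass. The call of Bid was gained without the first 3D library, and that of Bad without it or without 2D WT replicate 2. The summed fibroblast markers were at 8.31 to 9.51 CPM in the 2D and 201 to 229 CPM in the 3D libraries, and the carcinoma markers at 443 to 478 CPM and 214 to 233 CPM. Of 3 fibroblast markers tested 3 were higher in 3D, and of 4 carcinoma markers tested 2 were higher and 2 were lower. Whether these bear on the result was not tested.

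Whether the genotype effect differed between 3D and 2D was tested with an interaction term, coded as the effect in 3D minus that in 2D. Of 9 members 2 had a positive term and 3 a negative one past the threshold, beside 11.1% and 16.1% of all genes. The negative terms belonged to Bax (-1.05 ± 0.15, adjusted p = 0.00024), Bbc3 (-1.01 ± 0.30, adjusted p = 0.023) and Mcl1 (-0.72 ± 0.11, adjusted p = 0.0004), none of which passed the test for genotype in 2D. The positive ones belonged to Bid (0.63 ± 0.13, adjusted p = 0.0028) and Bcl2 (0.57 ± 0.15, adjusted p = 0.011). Bid fell with the knockout in 2D and did not pass the test in 3D. Bcl2l11 had a term of 0.49 ± 0.18 with an adjusted p of 0.058, which passed without the first 3D Cxcl5-/- library, with DESeq2's Wald test, with library totals, with no filter and with the filter of 10 counts. Bcl2l1 (-0.06 ± 0.14, adjusted p = 0.82) and Bak1 (-0.06 ± 0.16, adjusted p = 0.82) had terms near 0. The term of Bbc3 lost the call without 2D Cxcl5-/- replicate 1, with library totals and with no filter on low counts. With library totals 4585 of all genes had a positive and 1359 a negative term, against 2376 and 3431 with TMM. This term and the 2 genotype comparisons use the same 12 libraries.

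The rescue experiment compared WT and Cxcl5-/- spheroids again, in libraries separate from those above. There, 3 members rose and 4 fell of 9 in Cxcl5-/- cells, beside 17.6% of all 28730 genes tested that rose and 24.3% that fell. With the filter of 10 counts in every sample, which all 9 members passed, 4463 of 16095 genes rose and 4747 fell. Bcl2l11 was at 66.0 and 58.6 CPM in the 2 Cxcl5-/- samples and at 20.1 and 19.4 CPM in the 2 WT samples, a 3.16-fold difference (1.66 ± 0.11, adjusted p = 8.7e-07). Bax was at 25.05 and 30.7 CPM against 60.9 and 61.9 CPM (-1.14 ± 0.16, adjusted p = 0.00017). Both Cxcl5-/- samples were far below both WT samples. Bbc3 was at 3.36 and 5.04 against 7.39 and 7.83 CPM (-0.86 ± 0.21, adjusted p = 0.0078), Bak1 at 21.98 and 28.2 against 42.01 and 32.5 CPM (-0.57 ± 0.15, adjusted p = 0.013) and Mcl1 at 135 and 133 against 165 and 161 CPM (-0.28 ± 0.08, adjusted p = 0.013). Each of these genes had separate groups. The 2 members that rose here and did not pass in the culture experiment were Bcl2 at 48.5 and 48.7 against 35.7 and 38.0 CPM (0.40 ± 0.11, adjusted p = 0.017) and Bid at 35.5 and 33.7 against 26.2 and 26.0 CPM (0.41 ± 0.10, adjusted p = 0.0078).

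All 5 members called for genotype in 3D in the culture experiment (Bax, Mcl1, Bbc3, Bak1 and Bcl2l11) were called in the rescue experiment with the same sign, and 7 of 9 were called there. Of the 9568 genes called in the culture experiment among the 21058 tested in both, 64.1% were called in the rescue experiment with the same sign. The difference in size between the experiments, such as 0.79 ± 0.12 and 1.66 ± 0.11 for Bcl2l11, was not tested, since the tables were counted separately. With 2 samples a group the calls were less firm. Without rescue Cxcl5-/- replicate 1 only Bax and Bcl2l11 kept the call. Bcl2 and Mcl1 lost it without any one of the 4 libraries, Bid also without rescue WT replicate 1 or 2, and Bak1 also without rescue WT replicate 1. DESeq2 size factors took Bcl2 below the threshold and library totals took Mcl1 below it. The median of all genes was -0.30 with TMM, -0.39 with DESeq2 size factors and -0.25 with library totals. It was -0.01 with the filter of 10 counts in every sample, so it depended more on which genes were tested than on the scaling. Beside these differences, the summed fibroblast markers were at 259 CPM in both Cxcl5-/- samples and at 17.8 and 20.5 CPM in WT. The carcinoma markers were at 285 and 300.1 CPM against 855 and 902 CPM. The 3 endothelial markers summed to 0 and 0.0406 CPM against 1.65 and 3.17 CPM. Cdh5, Kdr and Pecam1 had 19 to 75, 29 to 31 and 27 to 40 counts in WT and at most 2 in Cxcl5-/-, and no test of them is given. The 6 macrophage markers summed to 14.8 and 15.7 CPM against 14.2 and 14.4 CPM. Of these, Adgre1 had 21 to 33 counts in WT and 0 in Cxcl5-/-, and Ptprc had 71 to 87 and 5 to 6. The WT libraries held more genes at 10 counts or more, as given above. Their part in the result was not tested.

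**Figure D2:**
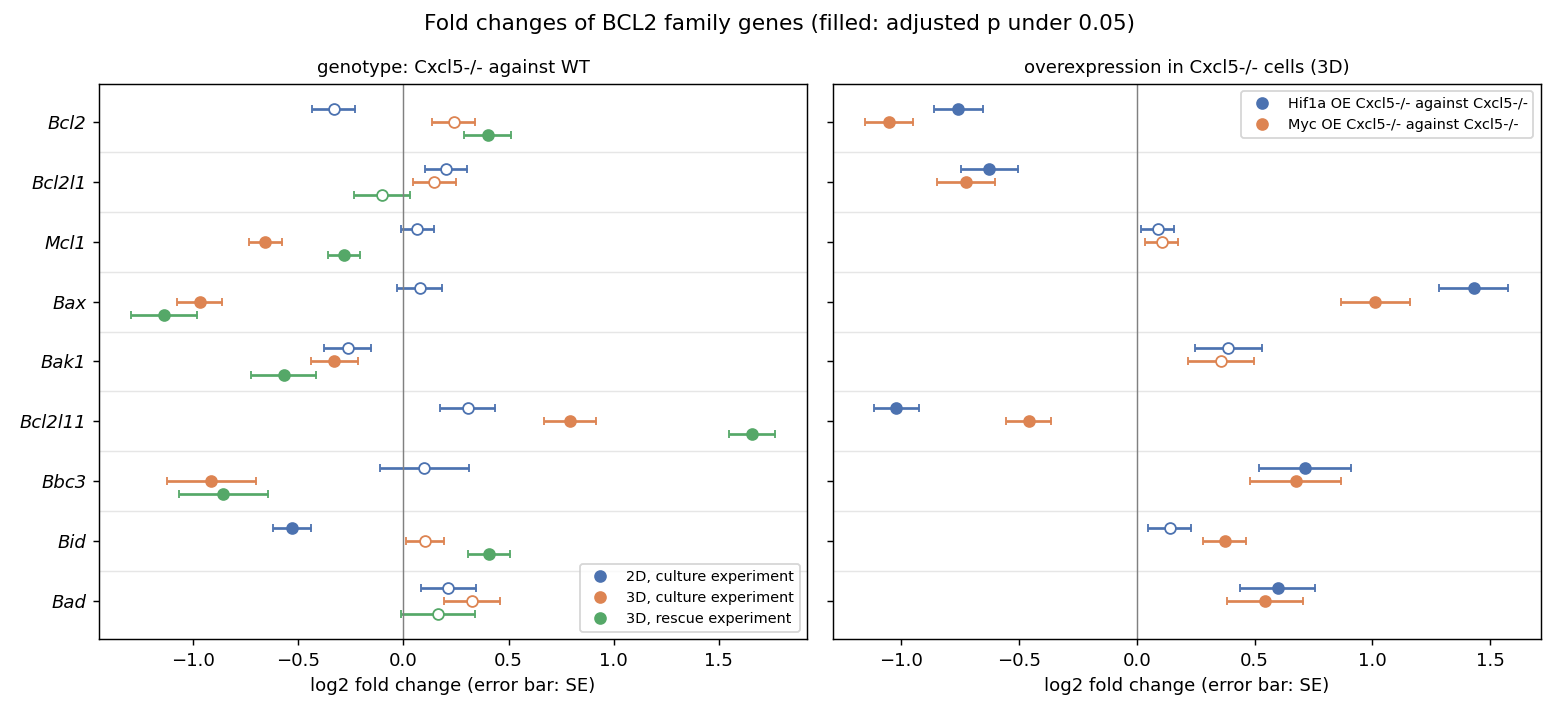
Log2 fold change of the 9 well-counted members with its SE, filled where the adjusted p is under 0.05. Left, Cxcl5-/- against WT in 2D, in 3D of the culture experiment (as labelled) and in 3D of the rescue experiment; right, Hif1a OE and Myc OE in Cxcl5-/- cells against Cxcl5-/- cells. Bax, at -0.97 and -1.14 for genotype in 3D, is at 1.43 and 1.01 for the overexpressing lines, and Bcl2l11 is at 0.79 and 1.66 for genotype and at -1.02 and -0.46 for the lines.

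Cxcl5-/- spheroids that overexpressed mutant Hif1a carried more Bax, Bbc3 and Bad and less Bcl2l11, Bcl2 and Bcl2l1 than Cxcl5-/- spheroids. So 3 members rose and 3 fell of 9, beside 20.5% of all genes that rose and 15% that fell. This comparison, that of Myc OE below and the genotype comparison above share the 2 rescue Cxcl5-/- samples, so their values are not independent of each other. Bax was at 67.6, 86.2 and 71.4 CPM in Hif1a OE Cxcl5-/- spheroids, above the 25.05 and 30.7 CPM of the Cxcl5-/- samples by 2.69-fold (1.43 ± 0.15, adjusted p = 2.1e-05). Bcl2l11 was at 30.0, 28.7 and 33.4 CPM, below both Cxcl5-/- samples (-1.02 ± 0.09, adjusted p = 1e-05). Bcl2 was at 30.2, 25.7 and 30.4 CPM (-0.76 ± 0.10, adjusted p = 0.00015) and Bcl2l1 at 32.7, 36.5 and 34.0 CPM against 54.6 and 51.5 CPM (-0.62 ± 0.12, adjusted p = 0.0019). The groups of each of these genes were separate. Bbc3 was at 6.18, 7.29 and 7.19 CPM (0.71 ± 0.19, adjusted p = 0.014) and Bad at 41.0, 52.9 and 37.0 against 25.2 and 32.5 CPM (0.60 ± 0.16, adjusted p = 0.013). Both lost the call without rescue Cxcl5-/- replicate 1, and Bbc3 also with library totals, under which 4335 of all genes rose and 5605 fell against 5904 and 4308 with TMM. Bak1 (0.39 ± 0.14, adjusted p = 0.053), Bid (0.14 ± 0.09, adjusted p = 0.26) and Mcl1 (0.09 ± 0.07, adjusted p = 0.34) did not pass, although Bak1 did without either rescue WT library, without rescue Cxcl5-/- replicate 2, without Myc OE replicate 1 or with only the groups compared. The summed fibroblast markers were at 23.9 to 42.8 CPM with Hif1a against 259 CPM in both Cxcl5-/- samples. The carcinoma markers were at 677 to 799 CPM against 285 and 300.1 CPM, and of 5 tested 3 were higher and 1 was lower. Of 5 macrophage markers tested 1 was higher. The 3 endothelial markers summed to 0.199 to 0.979 CPM against 0 and 0.0406 CPM. Whether these bear on the result was not tested.

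With Myc overexpressed, Cxcl5-/- spheroids carried more Bax, Bbc3, Bad and Bid and less Bcl2, Bcl2l1 and Bcl2l11 than without it. Of the 9 members 4 rose and 3 fell, beside 21.6% and 18% of all genes. Bax was at 63.6, 57.7 and 47.6 CPM (1.01 ± 0.15, adjusted p = 0.00018), all 3 samples above both Cxcl5-/- samples. Bcl2 was at 21.1, 24.5 and 24.9 CPM, below the 48.5 and 48.7 CPM of the Cxcl5-/- samples (-1.05 ± 0.10, adjusted p = 1.1e-05), and Bcl2l1 at 36.9, 32.2 and 27.2 CPM (-0.72 ± 0.12, adjusted p = 0.00058). Bcl2l11 was at 42.8, 44.8 and 48.4 CPM (-0.46 ± 0.09, adjusted p = 0.0024), between the Cxcl5-/- and the Hif1a OE Cxcl5-/- samples. Bbc3 (0.67 ± 0.19, adjusted p = 0.017), Bad (0.54 ± 0.16, adjusted p = 0.019) and Bid (0.37 ± 0.09, adjusted p = 0.0065) rose, while Bak1 (0.36 ± 0.14, adjusted p = 0.066) and Mcl1 (0.11 ± 0.07, adjusted p = 0.25) did not pass. Under library totals only Bax of the 4 stayed past the threshold on the higher side, with 4271 of all genes rising and 7482 falling against 6205 and 5167 with TMM. Without rescue Cxcl5-/- replicate 1, Bbc3, Bad and Bcl2l11 lost the call, as did Bid without rescue Cxcl5-/- replicate 2 and Bad without Myc OE replicate 1. Bak1 gained it without either rescue WT library, rescue Cxcl5-/- replicate 2 or Myc OE replicate 2. The summed fibroblast markers were at 146 to 167 CPM with Myc, below the 259 CPM of the Cxcl5-/- samples. The carcinoma markers were at 263 to 308 CPM, overlapping those samples. Of 5 macrophage markers tested 1 was higher and 1 was lower. The 3 endothelial markers summed to 0.282 to 0.508 CPM against 0 and 0.0406 CPM. Their part in the result was not tested.

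Set directly against each other, the overexpressing lines differed in Bcl2l11, Bax and Bcl2. There, 1 member rose and 2 fell of 9 in Myc OE against Hif1a OE Cxcl5-/- spheroids, beside 9.54% and 9.73% of all genes. Bcl2l11 was higher in the Myc line (0.56 ± 0.09, adjusted p = 0.00081), with no overlap. Bax (-0.42 ± 0.13, adjusted p = 0.038) and Bcl2 (-0.29 ± 0.09, adjusted p = 0.049) were lower. Bax lost the call without 1 of 4 libraries (replicates 2 and 3 of either line) and Bcl2 in 9 of the 10 fits that left out a library, the exception being the fit without Hif1a OE replicate 2. With no filter on low counts both lost it, and Bcl2 also with DESeq2 size factors or only the groups compared. Bid was at 0.23 ± 0.08 (adjusted p = 0.066) and passed without Hif1a OE replicate 2, with DESeq2's Wald test, with DESeq2 size factors and with the filter of 10 counts. Bbc3 (-0.04 ± 0.17, adjusted p = 0.93), Bad (-0.05 ± 0.14, adjusted p = 0.87), Mcl1 (0.02 ± 0.06, adjusted p = 0.93), Bak1 (-0.03 ± 0.12, adjusted p = 0.92) and Bcl2l1 (-0.10 ± 0.11, adjusted p = 0.62) did not pass. Under library totals 1984 of all genes rose and 3504 fell, against 2742 and 2796 with TMM. Fibroblast markers summed to 146 to 167 CPM with Myc against 23.9 to 42.8 CPM with Hif1a, and carcinoma markers to 263 to 308 CPM against 677 to 799 CPM. Of 4 fibroblast markers tested 1 was higher and 2 were lower with Myc. Of 5 carcinoma markers tested 1 was higher and 2 were lower. Whether these bear on the result was not tested.

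Against WT spheroids, both overexpressing lines had more Bcl2l11, Bid and Bad and less Bcl2l1 and Bcl2. For Hif1a OE Cxcl5-/-, 3 members rose and 2 fell of 9, beside 13.9% and 10.3% of all genes. For Myc OE Cxcl5-/- the counts were 3 and 2, beside 17.1% and 14.7%. The balance over all genes turned with the scaling: 4001 rose and 2961 fell with Hif1a under TMM, 2584 and 3798 under DESeq2 size factors and 2214 and 3569 under library totals. For Myc these were 4903 and 4225, 3739 and 5115, and 2489 and 6178. Bcl2l1, at 61.5 and 52.4 CPM in WT, had log2 fold changes of -0.73 ± 0.12 (adjusted p = 0.0017) in the Hif1a line and -0.83 ± 0.12 (adjusted p = 0.00046) in the Myc line. Bcl2l11 had 0.64 ± 0.10 (adjusted p = 0.0011) and 1.20 ± 0.10 (adjusted p = 8.7e-06), so it was above WT in both. Bid rose from 26.2 and 26.0 CPM in WT to 37.7, 41.8 and 34.8 CPM in the Hif1a line (0.55 ± 0.09, adjusted p = 0.0018) and 46.5, 43.5 and 44.5 CPM in the Myc line (0.78 ± 0.09, adjusted p = 0.0001). Bad was at 46.9, 40.3 and 39.1 CPM in the Myc line and 27.2 and 24.3 CPM in WT (0.71 ± 0.16, adjusted p = 0.007; Hif1a line 0.76 ± 0.16, adjusted p = 0.0066), and lost the call in both lines without rescue WT replicate 2. Bcl2 fell in the Myc line (-0.65 ± 0.10, adjusted p = 0.00076) and in the Hif1a line (-0.36 ± 0.10, adjusted p = 0.03), the second call being lost without either rescue WT library, either rescue Cxcl5-/- library or Hif1a OE replicate 2.

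Bax, Bbc3, Bak1 and Mcl1 did not pass the test against WT in either line. For Bax the log2 fold changes were 0.29 ± 0.14 (adjusted p = 0.16) with Hif1a and -0.13 ± 0.14 (adjusted p = 0.51) with Myc, and for Bbc3 they were -0.14 ± 0.19 (adjusted p = 0.61) and -0.18 ± 0.19 (adjusted p = 0.48). Bak1 was at -0.18 ± 0.14 (adjusted p = 0.36) and -0.21 ± 0.14 (adjusted p = 0.27). Mcl1 was at -0.19 ± 0.07 (adjusted p = 0.064) and -0.18 ± 0.07 (adjusted p = 0.072), and fell past the threshold in both lines with DESeq2's test, DESeq2 size factors, library totals or the filter of 10 counts in every sample, and in the Myc line also without Hif1a OE replicate 2. In the Myc comparison the all-gene median was -0.17 with TMM and -0.46 with library totals, where Bax (-0.42) and Bak1 (-0.50) then fell too. Bak1 in the Myc line also fell with the filter of 10 counts (-0.37, adjusted p = 0.038). The summed fibroblast markers were at 23.9 to 42.8 CPM with Hif1a and 146 to 167 CPM with Myc against 17.8 and 20.5 CPM in WT. Of 4 tested, 1 was higher and 1 was lower in each line. The carcinoma markers were at 677 to 799 CPM and 263 to 308 CPM against 855 and 902 CPM, and of 5 tested 2 were lower with Hif1a and 5 with Myc. Of 5 macrophage markers tested 2 were higher and 1 was lower with Hif1a, and 1 was higher with Myc. The 3 endothelial markers summed to 0.199 to 0.979 CPM with Hif1a and 0.282 to 0.508 CPM with Myc against 1.65 and 3.17 CPM in WT. Adgre1, Cdh1 and Kdr had at most 3, 10 and 9 counts outside rescue WT, so tests of such markers rest on the WT group. The WT libraries also held more genes at 10 counts or more, as given above, and the part of these in the result was not tested.

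**Figure D3:**
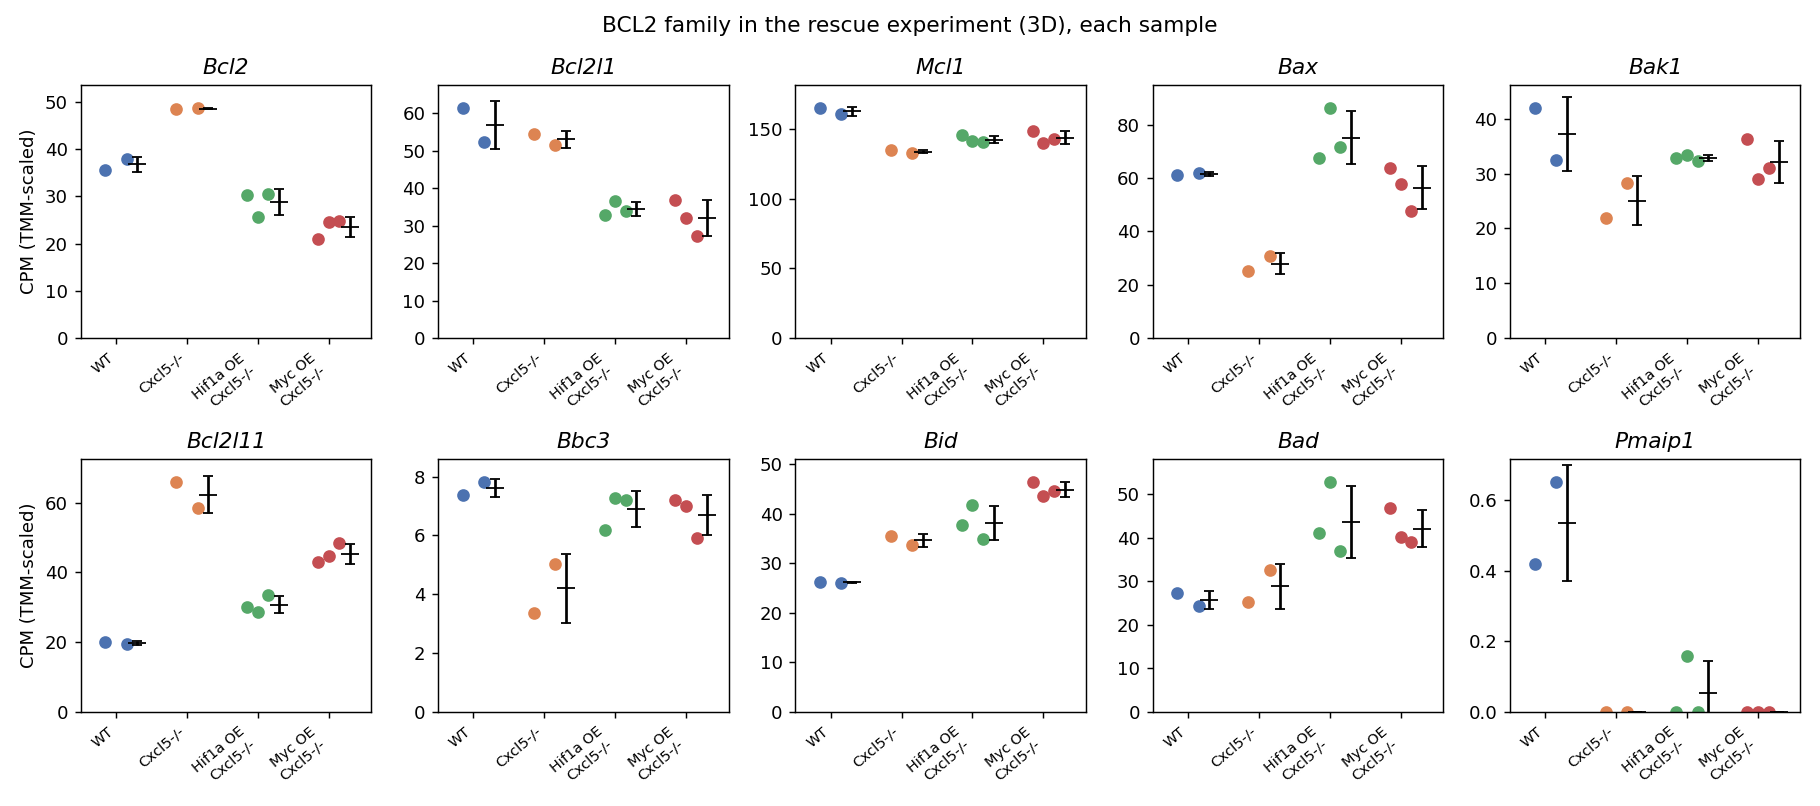
Level of each member in the rescue experiment (CPM on TMM-scaled library sizes, linear axes from 0), with 1 point per sample and the mean and SD beside the points. All groups are 3D spheroids, with 2 WT, 2 Cxcl5-/-, 3 Hif1a OE Cxcl5-/- and 3 Myc OE Cxcl5-/- samples. The Cxcl5-/- samples are lowest for Bax, at 25.05 and 30.7 CPM, and highest for Bcl2l11, at 58.6 and 66.0 CPM.

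Ratios of raw counts within a sample do not depend on the scaling between libraries. A pair of ratios was taken after the levels had been seen, Bax to Bcl2 (an effector to a guardian) and Bcl2l11 to Mcl1 (a BH3-only gene to a guardian whose protein it binds), and they are given without a test. Bax to Bcl2 was 1.98, 1.44 and 1.68 in 2D WT, 2.31, 2.41 and 2.03 in 2D Cxcl5-/- and 1.96, 1.48 and 1.38 in 3D WT samples. It was 0.881, 0.519 and 0.706 in libraries labelled 3D Cxcl5-/-, below every other sample of the culture experiment. In the rescue experiment it was 1.71 and 1.63 in WT and 0.516 and 0.631 in Cxcl5-/- samples. With overexpression it was 2.24, 3.36 and 2.35 for Hif1a and 3.02, 2.36 and 1.91 for Myc, above both WT samples. Bcl2l11 to Mcl1 was 0.0575, 0.0714 and 0.0559 in 2D WT, 0.0668, 0.0762 and 0.0752 in 2D Cxcl5-/-, 0.183, 0.155 and 0.204 in 3D WT and 0.388, 0.59 and 0.512 in libraries labelled 3D Cxcl5-/-. The ratio in the rescue experiment was 0.122 and 0.121 in WT, 0.491 and 0.441 in Cxcl5-/-, 0.207, 0.204 and 0.238 with Hif1a and 0.288, 0.32 and 0.339 with Myc, so that 4 separate ranges stood in the order WT, Hif1a, Myc and Cxcl5-/-. Over all media together, WT spheroids of the conditioned media experiment ran from 0.557 to 2.07 for Bax to Bcl2 and from 0.109 to 0.363 for Bcl2l11 to Mcl1. The lowest of the former and the highest of the latter were both M1-CM replicate 2, whose Bax to Bcl2 ratio lay within the range of the Cxcl5-/- spheroids.

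**Figure D4:**
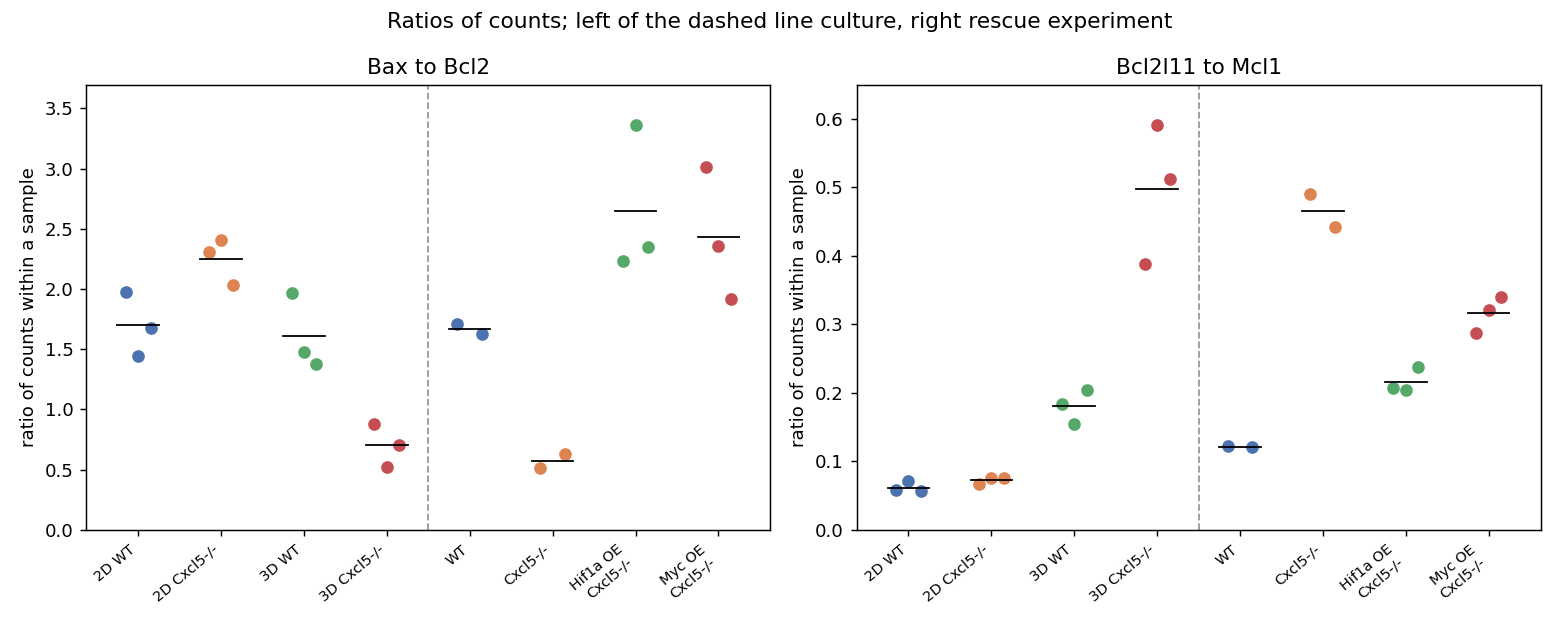
Ratio of counts of Bax to Bcl2 (left) and of Bcl2l11 to Mcl1 (right) in each sample of the culture and rescue experiments, on linear axes from 0, with a line at the group mean. Of the samples plotted, the Cxcl5-/- samples in 3D are lowest for the first ratio, at 0.516 to 0.881, and highest for the second, at 0.388 to 0.590.

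Pmaip1, the gene of NOXA, a BH3-only protein that binds MCL1, was counted mainly in WT spheroids. Its counts were 35, 21 and 10 in the 3D WT samples, 0, 5 and 7 in the 2D WT samples, and 0 in all 3 samples of 2D Cxcl5-/- and of the libraries labelled 3D Cxcl5-/-. Rescue samples had 19 and 30 in WT and 0 in both Cxcl5-/- samples. The Hif1a OE Cxcl5-/- samples had 0, 9 and 0 counts, and all 3 Myc OE Cxcl5-/- samples had 0. All 9 samples of the conditioned media experiment, which were WT spheroids, were also at 0. Against a floor of 3 counts over the whole Cxcl5-/- group, the pooled level of Pmaip1 was 27.6-fold higher in WT spheroids of the culture experiment. In those of the rescue experiment it was 17.4-fold higher. These values pool the WT samples, which ran from 0.184 to 0.678 CPM and from 0.419 to 0.652 CPM. They are not lower bounds for a single sample. The gene did not pass the filter on low counts in the culture and conditioned media experiments. In the rescue experiment it passed only through the WT group, and no test of it is given. Beside this, Ptprc, a marker of blood cells, had 20 to 35 counts in 3D WT and 71 to 87 in rescue WT against 0 to 11 in the Cxcl5-/- libraries of both experiments, 2 to 43 with Hif1a and 18 to 27 with Myc, and the part of such low-level transcripts in the Pmaip1 counts was not tested.

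No member was told apart by conditioned medium. None of the 9 passed the test in M1-CM against Ctrl (0 of 9, beside 0.0156% of all 19207 genes tested), in M1-CM against M0-CM (0 of 9, beside 0.0156%) or in M0-CM against Ctrl (0 of 9, beside 0%). DESeq2's test also called 0 members in each, beside 69, 21 and 14 of all genes that rose and 28, 11 and 3 that fell. At an unadjusted p under 0.05 there were 1, 0 and 0 members, beside 586, 309 and 412 of 19207 genes that rose and 317, 189 and 157 that fell. The 1 was Mcl1, at 98.5, 87.1 and 98.9 CPM with M1-CM, 101.4, 114 and 109.7 CPM with M0-CM and 117, 109.5 and 125 CPM in control medium. M1-CM and Ctrl samples did not overlap for Mcl1, and its log2 fold change was -0.30 ± 0.12, adjusted p = 0.96. The members varied widely within groups. M1-CM replicate 2 was apart from the other 2 for Bcl2 (48.0, 81.4 and 45.8 CPM), Bcl2l11 (15.5, 31.6 and 17.8 CPM), Bax (74.6, 45.3 and 84.6 CPM) and Bad (28.8, 14.5 and 28.6 CPM). Control replicate 2 was apart for Bid (45.4, 77.7 and 54.2 CPM) and Bcl2l11 (28.0, 11.96 and 24.1 CPM). Without either of these libraries the count of called members was still 0. The SE of a log2 fold change against Ctrl ran from 0.124 for Mcl1 to 0.337 for Bcl2l11.

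**Figure D5:**
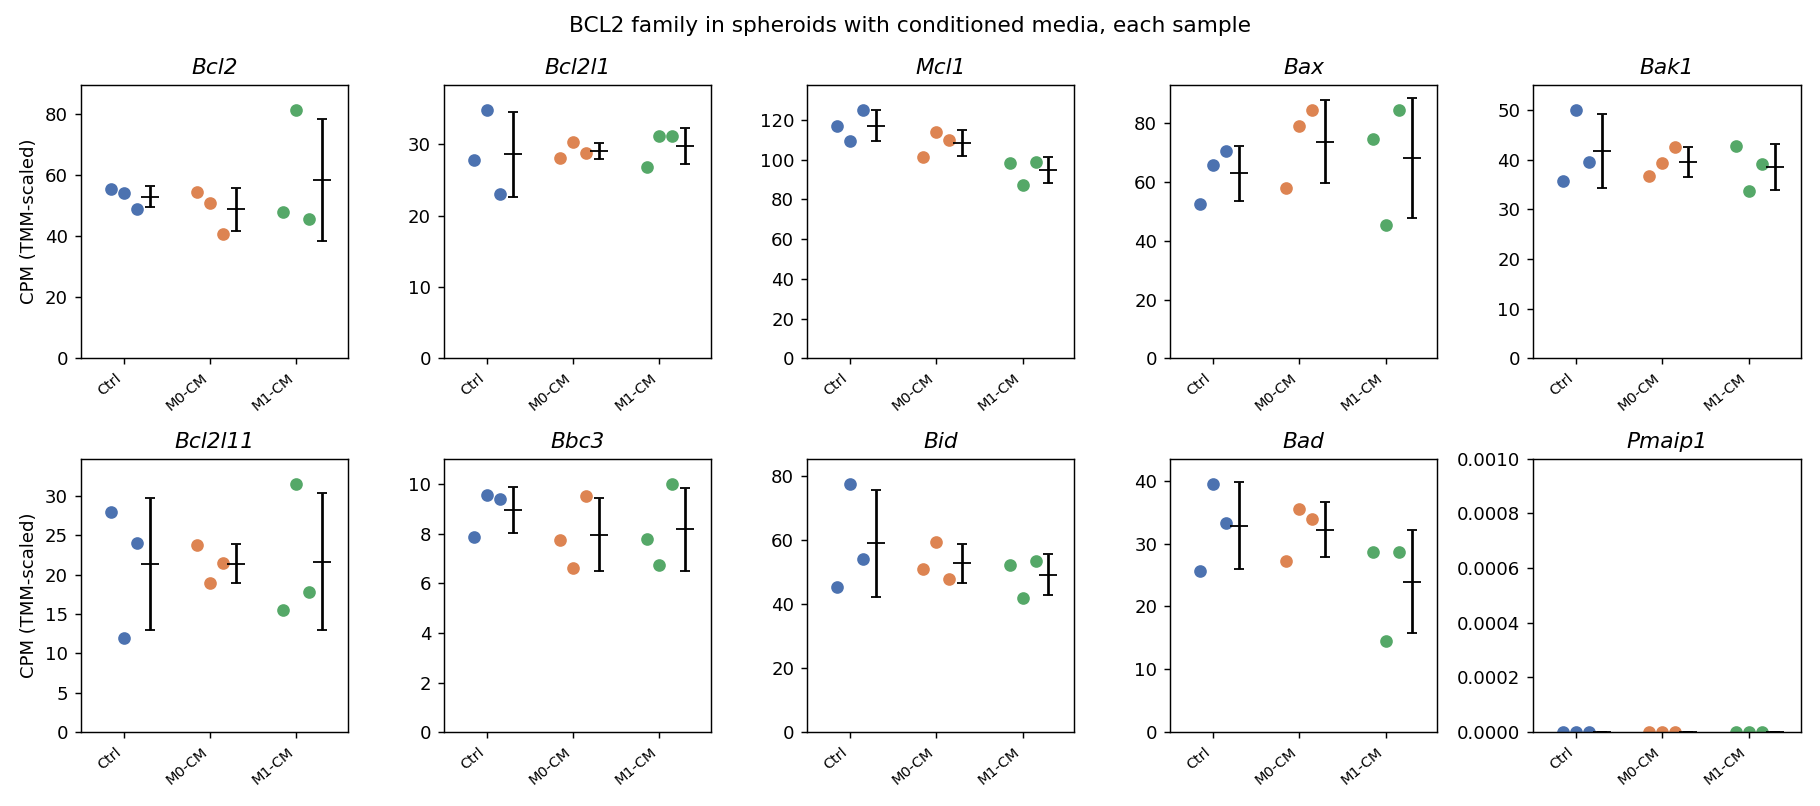
Level of each member in WT spheroids given control medium (Ctrl), M0-CM or M1-CM (CPM on TMM-scaled library sizes, linear axes from 0), with 1 point per sample, 3 samples a group, and the mean and SD beside the points. M1-CM and Ctrl samples overlap for 8 of the 9 well-counted members, Mcl1 being the other, and Pmaip1 is at 0 throughout.

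Other genes of the death pathway were counted in lists, chosen with results of these data known. Genes named from them with a change passed the test. The shares of all genes that rose and fell, against which each count of a list is to be read, were 22.2% and 22% in 3D against 2D WT, 3.86% and 3.17% for genotype in 2D, 19.7% and 25.3% for genotype in 3D, 17.6% and 24.3% for genotype in the rescue experiment, 20.5% and 15% with Hif1a, and 21.6% and 18% with Myc. Among 15 further relatives of the BCL2 family, 3 rose and 2 fell of 7 tested in 3D against 2D WT, 1 rose and 4 fell of 7 tested for genotype in 3D and 1 rose and 3 fell of 10 tested in the rescue experiment. Bnip3, a hypoxia-induced relative tied to mitophagy, was at 1139.8 ± 54.8 CPM in 3D WT and 78.3 ± 1.25 CPM in 2D WT (3.86 ± 0.12), and its paralogue Bnip3l rose as well (2.41 ± 0.09). Both were lower in libraries labelled 3D Cxcl5-/- than in WT spheroids (-1.38 ± 0.11 and -0.99 ± 0.09) and in rescue Cxcl5-/- than in rescue WT spheroids (-1.79 ± 0.12 and -1.28 ± 0.10). Against Cxcl5-/- spheroids they rose with Hif1a (1.16 ± 0.11 and 0.72 ± 0.09) and with Myc (1.40 ± 0.11 and 0.91 ± 0.09). Bmf, a BH3-only gene linked to detachment from matrix, rose in 3D WT (1.31 ± 0.10), was higher still in libraries labelled 3D Cxcl5-/- (1.32 ± 0.10) and was higher in rescue Cxcl5-/- than in rescue WT (1.67 ± 0.10). Bok, an effector relative, was lower in libraries labelled 3D Cxcl5-/- (-1.02 ± 0.12) and rose with Hif1a (0.52 ± 0.12) and Myc (0.78 ± 0.12) in the rescue experiment.

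Downstream of the mitochondrion, the apoptosome and caspase list of 12 genes gave these counts: 3 rose and 7 fell of 11 tested in 3D against 2D WT (median log2 fold change -0.30 beside 0.00 for all genes). For genotype in 3D, 0 rose and 6 fell of 11 tested in the culture experiment and 1 rose and 4 fell of 11 tested in the rescue experiment. There the median of the list was -0.10, beside -0.30 for all genes and -0.01 for genes with at least 10 counts in every sample. Cycs, which encodes cytochrome c, fell in both experiments (-0.56 ± 0.15 and -1.47 ± 0.15) and rose over Cxcl5-/- with Hif1a (1.51 ± 0.14) and Myc (1.54 ± 0.14). Against Cxcl5-/- spheroids, 6 rose and 1 fell of 11 tested with Hif1a and 7 rose and 2 fell of 11 tested with Myc, with Casp9 among those that fell in each (-0.89 ± 0.14 and -1.10 ± 0.14). Of 6 genes of inhibitors of apoptosis, Birc5, which is also a mitotic gene, fell for genotype in 3D (-1.35 ± 0.09 and, in the rescue experiment, -1.99 ± 0.16), and Xiap rose (0.38 ± 0.10 and 0.66 ± 0.11). Counts over the list were 1 rose and 2 fell of 5 tested in the culture experiment and 2 and 2 of 5 in the rescue experiment.

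Partners of the family on the outer membrane (10 genes) gave these counts: 2 rose and 5 fell of 10 tested for genotype in 3D in the culture experiment and 2 rose and 5 fell of 10 tested in the rescue experiment. Vdac1 and Vdac2, which encode the voltage-dependent channels, fell in both (-1.08 ± 0.09 and -0.67 ± 0.10, then -1.38 ± 0.08 and -0.80 ± 0.10). The death receptor list of 10 genes gave these counts: 3 rose and 2 fell of 9 tested for genotype in 3D in the culture experiment and 1 rose and 1 fell of 10 tested in the rescue experiment. Its largest change was Fas, at 79.4 ± 8.69 CPM in libraries labelled 3D Cxcl5-/- and 17.9 ± 1.90 CPM in 3D WT (2.15 ± 0.12). Fas was also higher in rescue Cxcl5-/- than in rescue WT (2.22 ± 0.11) and fell with Hif1a (-1.97 ± 0.09), while Tnfrsf10b, the gene of a TRAIL receptor, was lower for genotype in both (-1.29 ± 0.16 and -0.78 ± 0.13).

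Upstream of the BH3-only genes, the list of p53 and its targets (17 genes) gave these counts: 7 rose and 4 fell of 16 tested in 3D against 2D WT, 6 rose and 0 fell of 16 tested for genotype in 2D and 2 rose and 12 fell of 16 tested for genotype in 3D, where the median of the list was -0.52 beside -0.04 for all genes. Between the rescue genotypes 6 rose and 7 fell of 16 tested. The median of the list was -0.32 there, beside -0.30 for all genes and -0.01 for genes with at least 10 counts in every sample. Cdkn1a, the cell cycle inhibitor p21, was at 3.92 ± 2.51 CPM in libraries labelled 3D Cxcl5-/- and 67.8 ± 1.73 CPM in 3D WT (-4.11 ± 0.40). It was also lower for genotype in the rescue experiment (-2.05 ± 0.15). Not all targets went that way: Eda2r rose for genotype in 2D (1.31 ± 0.09) and in the rescue experiment (1.38 ± 0.14). Of 9 transcription factors that act on BH3-only genes, 5 rose and 1 fell of 8 tested in 3D against 2D WT, and 0 rose and 4 fell of 8 tested for genotype in 3D, against 2 rose and 5 fell of 9 tested in the rescue experiment. Atf3, a stress factor, was at 1.71 ± 0.15 CPM in 2D WT, 32.0 ± 0.495 CPM in 3D WT and 1.84 ± 0.738 CPM in libraries labelled 3D Cxcl5-/-. Jun (-2.80 ± 0.12), Atf4 (-1.37 ± 0.11) and Ddit3 (-0.86 ± 0.15) were lower there too. Foxo1, a factor that acts on Bcl2l11, rose in rescue Cxcl5-/- over WT (1.42 ± 0.15) and fell with Hif1a (-1.25 ± 0.13) and with Myc (-1.16 ± 0.13). It did not pass the test for genotype in 3D in the culture experiment, where it rose from 2D to 3D in WT (1.17 ± 0.21) and within the Cxcl5-/- label (1.65 ± 0.21).

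Genes for the turnover of MCL1 protein (9 genes) gave these counts: 3 rose and 2 fell of 8 tested for genotype in 3D in the culture experiment and 4 rose and 0 fell of 8 tested in the rescue experiment. Huwe1, a ubiquitin ligase of MCL1, was higher in both (0.66 ± 0.15 and 0.84 ± 0.13), as was Gsk3b, a kinase that marks MCL1 for degradation (0.89 ± 0.17 and 1.14 ± 0.14). Gsk3b and Huwe1 fell over Cxcl5-/- with Hif1a (-1.20 ± 0.12 and -0.62 ± 0.12) and with Myc (-1.17 ± 0.12 and -0.74 ± 0.12). Of 13 genes that phosphorylate or sequester BAD and BIM, 2 rose and 8 fell of 13 tested for genotype in 3D in the culture experiment and 4 rose and 7 fell of 13 tested in the rescue experiment. Pim1, a kinase that phosphorylates BAD, was at 3.20 ± 0.0407 CPM in libraries labelled 3D Cxcl5-/- against 12.5 ± 1.44 CPM in 3D WT (-1.96 ± 0.14). It was lower for genotype in the rescue experiment as well (-2.28 ± 0.20), where Pim3 went with it (-1.38 ± 0.15). Dynll2, a dynein light chain that holds BMF, rose for genotype in both experiments (1.39 ± 0.13 and 1.08 ± 0.12).

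Over the 12 samples of the culture experiment, the members with the widest range of group means in log2 CPM were Bcl2l11 (2.70), Bax (1.40) and Bcl2l1 (1.24). The genes whose log2 CPM followed each most closely, of those with a mean of at least 50 counts, were Calcoco1 (Pearson r = 0.996), Pcdhb20 (0.994) and Klhl24 (0.994) for Bcl2l11. For Bax they were Mpp1 (0.996), Ppp1ca (0.994) and Rpl8 (0.994), and for Bcl2l1 they included Mtr (0.988) and Ttl (0.987). These correlations describe 4 groups of 3 samples that share their scaling, and most of the range they follow lies between the groups.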

How the data were processed

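RNA of mouse Panc02 cells was sequenced from stranded total RNA libraries (NovaSeq, paired 101-base reads). The authors aligned reads to GRCm38/mm10 with HISAT2 and deposited raw counts per gene from StringTie, in 1 table per experiment (31 samples in 3 tables). The versions of HISAT2 and StringTie, the strand setting and the annotation release are not given in the sources used here. Per the study's methods the authors tested counts with DESeq2, whose version they give. Columns of gene identity carried no sample values.

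Here each table was fitted on its own with edgeR 4.0.16 in R 4.3.3 (TMM scaling, filterByExpr, all groups of the table, no block, quasi-likelihood test). Benjamini-Hochberg adjustment ran over all genes tested, and adjusted p under 0.05 was called. SEs are the log2 fold change divided by the square root of F. Fold changes used edgeR's prior count of 0.125, and CPM used TMM-scaled library sizes. Samples were grouped by their labels into 11 groups, and 14 comparisons were made. In data simulated from the culture table, 96.5% of 200 genes changed by 2-fold were recovered in 3D WT against 2D WT, and 7.66% of the calls were false. These shares were 84% and 4% for rescue Cxcl5-/- against WT, and 96% and 6.34% for M1-CM against Ctrl. The simulation gave all genes the same spread and changed only genes with a mean of at least 50 counts. So these shares are not the power for genes that vary more, as members did in the conditioned media samples.

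Replicate numbers are shared between groups, but deviations from group means of same-numbered samples correlated at -0.24 to 0.36 (media), -0.10 to 0.18 (culture) and -0.02 to 0.05 (rescue), so samples were not treated as paired. The genes named are all 10 members, up to 4 called genes by size of change per pathway list and comparison, the checks Cxcl5, Hif1a and Myc, and 3 genes most correlated with each of 3 members; a gene so named is also given in other comparisons. Some genes that this rule names are not reported here. The members and lists were chosen with earlier results of these data known. Alternatives tried were DESeq2 1.42.0, its size factors, library totals, other count filters, a fold limit, a replicate block, only the groups compared, rows of 1 symbol summed, and each sample left out. With 41542533 counts or more per sample there were 10 counts or more for 9 members in every sample.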

Additional observations from a re-analysis of the deposited data

Results flagged for a closer look

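For 5 members the difference between Cxcl5-/- and WT cells was not the same in 3D as in 2D, by a test of the difference itself (edgeR's quasi-likelihood interaction term, adjusted p under 0.05 over all genes, with the effect in 3D taken minus that in 2D). The term was -1.05 for Bax, where all 3 libraries labelled 3D Cxcl5-/- were below all 3 3D WT libraries and the 2D groups overlapped. It was -1.01 for Bbc3 and -0.72 for Mcl1, and it was 0.63 for Bid and 0.57 for Bcl2. Of all genes, 11.1% had a positive and 16.1% a negative term past the threshold. The term of Bbc3 lost the call with library totals, with no filter on low counts and without 2D Cxcl5-/- replicate 1. In the same 3D libraries Cxcl5 was higher than in WT, while Hif1a and Myc were lower, at log2 fold changes of -1.21 ± 0.10 and -1.75 ± 0.12 (SE).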

How the results depend on the processing

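Of 2322 values of single members recomputed under an alternative, 2188 stayed on their side of the threshold, 78 lost the call, 55 gained it and 1 called value reversed. Of the 2188, 126 come from summing rows of 1 symbol, which leaves the members' own counts as they are, since each has 1 row. The sign also changed in 60 values that were not called, of at most 0.26 (log2) as reported. The reversal was Bak1: its value in the libraries labelled 3D Cxcl5-/- against 3D WT was at 0.0541 with library totals. Counts of members past the threshold moved by over 1.5 times as follows, and the cause was not tested except where fewer genes were tested or a fold limit was set. With library totals, 5 members rose in 3D Cxcl5-/- against 3D WT, 4 had a positive interaction term, 1 rose in Myc OE against Cxcl5-/- and 5 fell in Myc OE against WT, while the counts over all genes moved the same way (7672 against 4218 with TMM, 4585 against 2376, 4271 against 6205 and 6178 against 4225). With DESeq2 size factors 3 fell in 3D WT against 2D WT, and in Myc OE against Hif1a OE 2 rose and 1 fell. With DESeq2's Wald test 2 rose in 3D Cxcl5-/- against 3D WT and 2 in Myc OE against Hif1a OE. Without the filter on low counts 3 rose in 3D Cxcl5-/- against 3D WT, 1 fell in Hif1a OE against WT and 0 fell in Myc OE against Hif1a OE. With 10 counts in every sample 3 rose in the first of these, 4 fell in Myc OE against WT and 2 rose in Myc OE against Hif1a OE. With a log2 fold change over 0.5 as well, 3 fell in 3D WT against 2D WT, 1 rose in 3D against 2D Cxcl5-/-, 1 rose in rescue Cxcl5-/- against WT, 1 fell in Hif1a OE against WT and 0 fell in Myc OE against Hif1a OE. With only the groups compared, 2 fell in 2D Cxcl5-/- against 2D WT and 1 fell in Myc OE against Hif1a OE. The ratio of Bax to Mcl1 per length in 3D WT, 1.04 with merged exons, was 1.49 with the longest transcript and 0.774 with the coding length.

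Leaving out 1 library at a time gave 3 to 6 members that fell in 3D WT against 2D WT, 1 to 3 that rose in 3D Cxcl5-/- against 3D WT and 1 to 2 that rose in 3D against 2D Cxcl5-/-. In the rescue experiment it gave 1 to 3 that rose and 1 to 4 that fell in Cxcl5-/- against WT, 1 to 4 that rose in Hif1a OE and 2 to 5 in Myc OE against Cxcl5-/-, 1 to 2 that fell in Hif1a OE against WT, and 1 to 2 that rose and 0 to 1 that fell in Myc OE against Hif1a OE. A rescue group left with 1 sample was assumed to vary like the others.

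Samples were not treated as paired by replicate number. In the conditioned media experiment, same-numbered Ctrl and M0-CM libraries were close in genes at 10 counts or more (18855 and 18952, 17215 and 17432, 17814 and 17911). The M1-CM libraries had 18388, 18803 and 17692. Whether same-numbered samples shared a batch was not tested. With the replicate number as a block, 122 values of members kept their side of the threshold, 3 gained the call (Bcl2 in 3D WT against 2D WT, Bad in 3D Cxcl5-/- against 3D WT and against 2D Cxcl5-/-) and 1 lost it (Bcl2 in Myc OE against Hif1a OE), so that 2 members rose in 3D Cxcl5-/- against 3D WT and 1 fell in Myc OE against Hif1a OE. Depth limits Pmaip1, whose highest count was 35, and no statement on its level in Cxcl5-/- cells below 3 counts can be made.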
